A study of Rattus norvegicus with 12 samples.

Results

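The matrix metalloproteinases and their tissue inhibitors were followed in the kidneys of rats with renal fibrosis (RF). Members were taken by gene symbol: 7 metalloproteinases (Mmp2, Mmp3, Mmp7, Mmp9, Mmp12, Mmp14 and Mmp15) and 3 inhibitors (Timp1, Timp2 and Timp3), 10 genes of 27723 symbols listed in either expression table and 20045 listed in both. Each member had 1 entry in each table. RNA was sequenced from 12 kidneys of wild-type male SD rats bought at 8 weeks of age, 3 rats in each of 4 groups. Rats of the adenine group were given adenine by gavage every day over 3 weeks, at a dose of 220 mg/kg, and those of the control group saline over the same 3 weeks. The UUO group (unilateral ureteral obstruction) had the left ureter tied off and the sham group had the same operation without the tie, both 2 weeks before sampling. Each sequenced library came from 1 rat, and whole kidney tissue was used, so a change in the number of cells of a type and a change in RNA per cell cannot be told apart.

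Matrix metalloproteinases are zinc-dependent proteases that cut collagens, elastin, laminins and other proteins of the extracellular matrix, as well as growth factors and receptors at the cell surface. Most are made as inactive proenzymes that are activated by cutting. TIMPs bind to the active site and block it, and they also act in activation: TIMP-2 holds pro-MMP-2 on the membrane protease MMP-14, which starts its activation. In the kidney these proteins are known for their part in turnover of the tubular basement membrane and the interstitial matrix, and transcript levels say nothing of how much of each protein is active.

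Expression was given as FPKM, in which fragment numbers are divided by transcript length and by the library's mapped fragments. Read numbers and thus depth are unknown, so precision rests on the spread between the 3 rats of a group. FPKM summed to 564972 to 582725 in control kidneys, 468389 to 487770 in adenine, 619664 to 630244 in sham and 528811 to 539011 in UUO, and kidneys of the same group correlated with Pearson's r of 0.952 to 0.971 over genes on the log2 scale. Changes are log2 fold changes (log2 FC) of FPKM + 0.1 within a table, tested with limma, and genes that changed by a log2 FC of 2 or more in size with an adjusted p (Benjamini-Hochberg) below 0.05 were called DEGs. Over the whole table the median log2 FC was 0.30 for adenine and 0.62 for UUO, so several smaller changes are also given after rescaling by the median of ratios, which brought these medians to 0.013 and 0.033. Adenine rat 1 and UUO rat 1 stood apart by adipocyte markers: the summed FPKM of 4 such genes was 258 in adenine rat 1 against 9.27 and 8.04 in the other adenine rats, and 78.5 in UUO rat 1 against 9.27 and 10.4. Without either rat, 7 members were still called in its model.

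Sequences just upstream of the start site were printed for 4 members: the 3 that lie in 1 run of metalloproteinase genes on chromosome 8 (Mmp12, Mmp3 and Mmp7) and Timp1, which lies on the X chromosome and rose with them in the UUO model. They are the 150 bases before each start, from a table of RefSeq promoters of assembly GRCr8 in which 7 of the 10 members were matched (Mmp2, Mmp9 and Mmp14 were not). Capitals mark the letters TGANTCA, a binding motif of the AP-1 family of transcription factors, and TATAAA, the TATA box, searched on both strands.
Mmp12, chr8:12866502-12866651, + strand: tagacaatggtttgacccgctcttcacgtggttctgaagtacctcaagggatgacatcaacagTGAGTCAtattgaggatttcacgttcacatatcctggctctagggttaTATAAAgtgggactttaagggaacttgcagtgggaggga
Mmp3, chr8:12925131-12925280, + strand: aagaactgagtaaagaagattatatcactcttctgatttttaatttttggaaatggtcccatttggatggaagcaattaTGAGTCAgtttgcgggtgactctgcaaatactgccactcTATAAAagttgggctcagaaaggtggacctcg
Mmp7, chr8:13132893-13133042, + strand: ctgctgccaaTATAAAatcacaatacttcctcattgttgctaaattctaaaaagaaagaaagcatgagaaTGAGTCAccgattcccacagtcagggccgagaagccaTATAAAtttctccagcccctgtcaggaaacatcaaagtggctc
Timp1, chrX:3771123-3771272, - strand: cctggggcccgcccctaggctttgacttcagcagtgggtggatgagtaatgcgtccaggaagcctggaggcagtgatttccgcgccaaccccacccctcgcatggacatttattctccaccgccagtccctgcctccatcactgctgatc
Upstream of Mmp12 the AP-1 letters began 87 bases and the TATA letters 39 bases before the start. Upstream of Mmp3 they began at 71 and 32 bases, and upstream of Mmp7 at 80 bases, with TATA letters at 140 and 43. Within 250 bases before the start, TGANTCA occurred in 3 of the 7 promoters and TATAAA in the same 3, against 6.34% and 12.9% of 33469 RefSeq promoters of that length. These 3 belong to related genes of 1 run, so the count is a description. Neither run of letters was found in the windows of Mmp15, Timp1, Timp2 and Timp3. The search took exact letters only, so near matches, such as tgagtaa upstream of Timp1, were not counted. A match to such letters is a description of the sequence and shows no binding.

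All 10 members reached the minimum FPKM in both tables. In the adenine model 7 members were upregulated DEGs (Mmp2, Mmp7, Mmp9, Mmp12, Mmp14, Timp1 and Timp2) and 0 were downregulated by limma, where 10.7% of 15029 tested genes were upregulated DEGs and 5.03% downregulated. With the p threshold alone 7 members were higher and 0 lower, against 39.6% and 19.9% of all tested genes. At an unadjusted p under 0.05 the counts were again 7 and 0, and no share of all tested genes is given for that threshold. In 7 members all 3 adenine kidneys lay above all 3 controls, as in 45% of tested genes, and in 0 below them, as in 23%. In the UUO model 7 members were upregulated DEGs (Mmp2, Mmp3, Mmp7, Mmp12, Mmp14, Timp1 and Timp2), where 13.2% of 15043 tested genes were upregulated DEGs and 4.21% downregulated. Mmp15 rose and Mmp9 fell in the UUO model with adjusted p under 0.05 but smaller changes, which made 8 members higher and 1 lower by p alone, against 56.1% and 14.4% of tested genes. The same 8 lay wholly above sham and the same 1 wholly below, as in 60% and 15.7% of tested genes. The upregulated DEGs of both models shared 6 members, and 7.6% of the 13486 genes tested in both were upregulated DEGs in each. The median log2 FC of the 10 members was 3.83 for adenine and 3.76 for UUO. Mmp7 and Mmp12 in the adenine model and Mmp3 and Mmp7 in the UUO model had 0 control or sham kidneys at the minimum FPKM, so they were tested only because they were high in treated kidneys, and these counts and medians are a description.

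**Figure D1:**
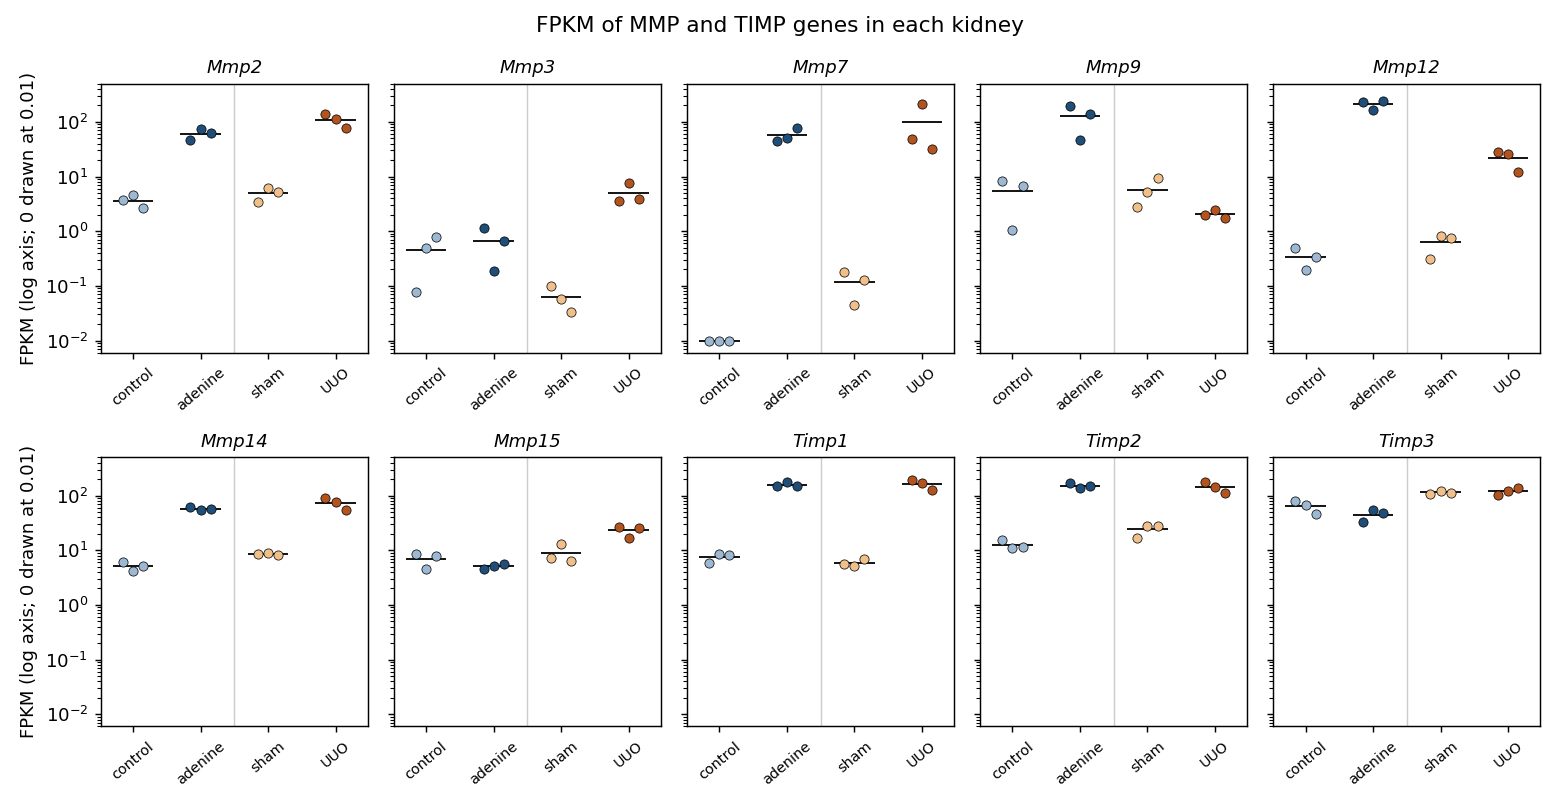
FPKM of each of the 10 genes in each of the 12 kidneys, on a log axis with values of 0 drawn at 0.01, by group (3 rats each; lines are group means, and the grey line parts the tables). Mmp9 points of the adenine group lie above their controls while those of the UUO group lie below sham, and Mmp3 points overlap between the control and adenine groups.

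Mmp2 and Mmp9 are the gelatinases, which digest denatured collagen and the type IV collagen of basement membranes. Mmp2, made largely by fibroblasts and other stromal cells, was at 3.64, 4.54 and 2.63 FPKM in control rats 1 to 3 and at 47.3, 72.6 and 62.1 in adenine rats. In sham rats it was at 3.42, 6.21 and 5.21 and in UUO rats at 141, 111 and 76.3. No treated kidney overlapped its controls, and the means rose 16.8-fold in the adenine model and 22.2-fold in the UUO model. The limma log2 FC was 4.05 (SE 0.24, adjusted p = 4.96e-05) and 4.44 (SE 0.29, adjusted p = 3.54e-05). Their difference, UUO minus adenine, was 0.39 with a 95% interval of -0.41 to 1.20.

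Mmp9, a gelatinase typical of neutrophils and macrophages and also found in tubule cells, went opposite ways. It was at 8.17, 1.04 and 6.76 FPKM in control rats and at 192, 45.7 and 140.4 in adenine rats, with rat 2 lowest in both groups. The lowest adenine kidney still lay above the highest control, and the log2 FC was 4.74 (limma, SE 0.86, adjusted p = 0.00335). In sham rats Mmp9 was at 2.73, 5.15 and 9.29 and in UUO rats at 1.95, 2.48 and 1.77. All 3 UUO kidneys lay below the lowest sham kidney by a small margin, the means differed 2.77-fold, and the log2 FC was -1.27 (limma, SE 0.42, adjusted p = 0.0306), or -1.85 (adjusted p = 0.00822) rescaled by the median of ratios. This decrease is less secure than the rise: over 15 alternative settings the adjusted p ran from 0.00396 to 0.136 and stayed under 0.05 in 9, and it was 0.0852 without UUO rat 3, 0.0753 without sham rat 2, 0.0737 without UUO rat 1 and 0.0596 without sham rat 3. The difference between the models was -6.01 (SE 0.96, 95% interval -8.07 to -3.95, adjusted p = 0.00106 from the limma fits).

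Beside Mmp9, the levels of cell type markers were as follows. The summed FPKM of 6 macrophage markers was 30.8 to 35.3 in control, 789 to 1096 in adenine, 35.7 to 45.5 in sham and 377 to 593 in UUO kidneys, and 6 of 6 were upregulated DEGs in both models. The sum of 6 neutrophil markers was 1.14 to 2.49 in control, 14.1 to 26.5 in adenine, 0.304 to 1.57 in sham and 6.91 to 38.0 in UUO, with Elane at the lowest listed value in every sham and UUO kidney. Both marker sums were thus higher in UUO than in sham kidneys, where Mmp9 was lower, and their part in the values of any member was not tested.

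Mmp3, stromelysin 1, cuts a wide range of matrix proteins and activates other proenzymes of the family. In control rats it was at 0.0781, 0.495 and 0.776 FPKM and in adenine rats at 1.17, 0.187 and 0.659. These groups overlapped, and the log2 FC of 0.52 (limma, SE 0.76, adjusted p = 0.578) did not pass the test. In sham rats Mmp3 was at 0.0974, 0.0574 and 0.0334 FPKM and in UUO rats at 3.61, 7.70 and 3.94, an 81.1-fold difference of means from sham levels close to the lower end of the table. Its log2 FC in the UUO model was 4.93 (limma, SE 0.36, adjusted p = 5.61e-05), and the change exceeded that of the adenine model by 4.40 (SE 0.85, 95% interval 2.58 to 6.23, adjusted p = 0.00281). Mmp3 was tested in the UUO model only because it was high in UUO kidneys, so these p-values are a description. The size depended on the pseudocount, with a UUO log2 FC of 2.46 with 1 and 6.14 with 0.01 and a difference of 2.26 and 5.42, and both stayed past the thresholds. Urothelium markers showed a like pattern: the summed FPKM of 4 such genes was 0.206 to 1.10 in sham and 62.1 to 117 in UUO kidneys, where 4 of 4 were upregulated DEGs, against 0.331 to 3.51 in control and 0.438 to 2.06 in adenine kidneys. Their part in the Mmp3 values was not tested.

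Mmp7, matrilysin, is a small protease of injured epithelium that lacks the hemopexin domain of most family members. It was listed at 0 in all 3 control kidneys and at 44.6, 50.2 and 76.5 FPKM in adenine rats. No fold can be given against 0, and limma gave an adjusted p of 1.89e-05 on the scale with 0.1 added. In both models Mmp7 was tested only because it was high in treated kidneys, so its p-values are a description. In sham rats it was at 0.183, 0.0442 and 0.128 FPKM, and in UUO rats at 49.4, 214 and 32.5. The UUO kidneys differed among themselves more than for any other member, with an SD of 100.5 around a mean of 98.7, and rat 2 held the high value. The UUO log2 FC ran from 7.58 to 8.94 when 1 rat was left out. The difference between the models depended on the pseudocount, at -0.74 with 0.1, 0.18 with 1 and -3.16 with 0.01 (adjusted p = 0.0159 from the limma fits), and was -1.54 (adjusted p = 0.0272) without UUO rat 2. No order of the rises is therefore given.

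Mmp12, macrophage elastase, cuts elastin and is expressed mainly by tissue macrophages. Control kidneys held 0.496, 0.195 and 0.339 FPKM and adenine kidneys 229, 164 and 241, which made it the member with the highest mean in the adenine group. The means differed 615-fold. Mmp12 was tested in the adenine model only because it was high in adenine kidneys, so its adenine change is a description. In sham kidneys Mmp12 was at 0.312, 0.833 and 0.752 FPKM and in UUO kidneys at 28.5, 25.4 and 12.2, a 34.8-fold rise with a log2 FC of 4.91 (limma, SE 0.43, adjusted p = 0.000103). In both models every treated kidney lay above all of its controls. The difference, UUO minus adenine, was -4.02 (SE 0.51, 95% interval -5.13 to -2.91, adjusted p = 0.000282 from the limma fits). As it rests on the adenine change, it is likewise a description. The macrophage marker sum was 789 to 1096 in adenine and 377 to 593 in UUO kidneys, and its part in this difference was not tested.

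Mmp14 and Mmp15 encode membrane-anchored proteases (MT1-MMP and MT2-MMP) that act at the cell surface. Mmp14, the activator of pro-MMP-2 and itself a collagenase, was at 6.03, 4.14 and 5.09 FPKM in control rats and at 61.5, 55.3 and 57.0 in adenine rats. In sham rats it was at 8.39, 8.95 and 8.07 and in UUO rats at 89.9, 76.7 and 54.3. All treated kidneys lay above their controls, and UUO rat 3 was the lowest of its group. The log2 FC was 3.50 (limma, SE 0.15, adjusted p = 2.61e-05) in the adenine model and 3.07 (SE 0.18, adjusted p = 2.78e-05) in the UUO model. The difference of -0.42 had a 95% interval of -0.94 to 0.09.

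Mmp15, which is expressed by epithelial cells, was at 8.40, 4.53 and 8.00 FPKM in control rats and at 4.58, 5.05 and 5.55 in adenine rats. These groups overlapped through control rat 2, and the log2 FC was -0.41 (limma, SE 0.25, adjusted p = 0.202). Without control rat 2 the log2 FC was -0.69 (limma, adjusted p = 0.0103). That kidney also had the lowest podocyte marker sum of the controls, at 31.2 against 143 and 199, and its part here was not tested. In sham rats Mmp15 was at 7.10, 13.3 and 6.48 and in UUO rats at 27.1, 16.7 and 25.5, with no overlap. Its log2 FC in the UUO model was 1.40 (limma, SE 0.31, adjusted p = 0.00607), under the threshold for a DEG. Rescaled by the median of ratios, the values were -0.70 (adjusted p = 0.0413) in the adenine model and 0.81 (adjusted p = 0.0683) in the UUO model, so the side of the p threshold depended on the scaling in both. The difference between the models was 1.81 (SE 0.40, 95% interval 0.95 to 2.67, adjusted p = 0.00611).

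**Figure D2:**
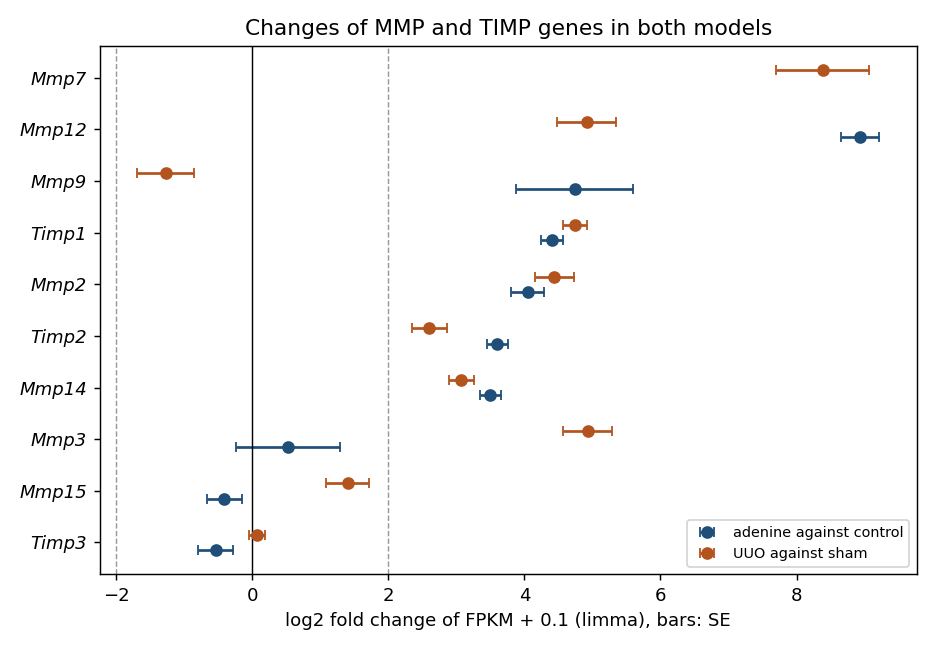
log2 fold change of FPKM + 0.1 (limma, bars are SE) for the 10 genes, adenine against control in blue and UUO against sham in orange, with dashed lines at the DEG thresholds of -2 and 2. Mmp7 has no adenine point because its controls were listed at 0, and Mmp9 is the gene with points far apart on both sides of 0, at 4.74 and -1.27.

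The TIMPs differ in reach: TIMP-1 and TIMP-2 are soluble inhibitors, and TIMP-3 stays bound to the matrix and also blocks ADAM and ADAMTS proteases. Timp1 was at 5.88, 8.41 and 8.04 FPKM in control rats and at 147, 179 and 149 in adenine rats. In sham rats it was at 5.72, 5.20 and 6.79 and in UUO rats at 191, 171 and 124. The groups lay far apart in both models, with a 21.3-fold and a 27.5-fold difference of means and a log2 FC of 4.40 (limma, SE 0.16, adjusted p = 2.38e-05) and 4.74 (SE 0.18, adjusted p = 1.02e-05). The changes differed by 0.34, with a 95% interval of -0.19 to 0.86.

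Timp2 was at 15.3, 10.8 and 11.4 FPKM in control rats and at 169, 138 and 147 in adenine rats. In sham rats it was at 16.4, 28.2 and 27.4 and in UUO rats at 180, 142 and 113. Every treated kidney lay above its controls, and the log2 FC was 3.60 (limma, SE 0.16, adjusted p = 2.61e-05) in the adenine model and 2.60 (SE 0.25, adjusted p = 0.000155) in the UUO model. The difference, UUO minus adenine, was -1.00 (SE 0.30, 95% interval -1.65 to -0.35, adjusted p = 0.0260 from the limma fits), which missed the size threshold of 2. That adjusted p ran up to 0.0701 among fits without 1 rat, and reached it without sham rat 2.

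Timp3, the most abundant member in control and sham kidneys, was at 79.5, 68.1 and 46.7 FPKM in control rats and at 32.2, 53.5 and 47.5 in adenine rats. In sham rats it was at 108, 122 and 113 and in UUO rats at 104, 123 and 136. Both pairs of groups overlapped, with a log2 FC of -0.54 (limma, SE 0.26, adjusted p = 0.111) in the adenine model and 0.07 (SE 0.12, adjusted p = 0.598) in the UUO model. Rescaled by the median of ratios, Timp3 was lower in both models, by -0.83 (adjusted p = 0.0246) and -0.53 (adjusted p = 0.00764), so its direction in the UUO model turned with the scaling. It passed the test for a rise under neither scaling.

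The 3 TIMP genes overlap other genes in the RefSeq annotation of GRCr8: Timp1 overlaps Syn1, Timp3 overlaps Syn3 and Timp2 overlaps Cep295nl. The libraries marked strand, but whether counting used it is not stated, so reads of overlapping genes may not be told apart. Syn1 was at 0.0557 to 0.166 FPKM in control and 1.12 to 1.32 in adenine kidneys, and at 0.0480 to 0.0776 in sham and 0.908 to 1.21 in UUO kidneys, higher in the same groups as Timp1. Cep295nl was at 0 to 0.0309 FPKM in control and 0.351 to 0.646 in adenine kidneys, and at 0.0001 to 0.0617 in sham and 0.109 to 0.263 in UUO kidneys, higher in the same groups as Timp2. Syn3 ran from 0.163 to 1.06 FPKM over all kidneys. These values are small beside those of the TIMP genes.

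Of the 10 members, 3 were called as changed differently between the models (adjusted p under 0.05 and a difference of at least 2), against 2.88% of 13486 genes tested in both. Mmp9 and Mmp12 had the higher log2 FC in the adenine model, as did 1.07% of these genes, and Mmp3 in the UUO model, as did 1.82%. Mmp12 in the adenine model and Mmp3 in the UUO model were tested only because they were high in treated kidneys. These counts are therefore a description. With Mmp15 and Timp2, 5 members had an adjusted p under 0.05. The remaining 5 had intervals that include 0 or, for Timp3 (0.61, interval 0.0034 to 1.22, adjusted p = 0.122), reach close to it.

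The order of the members within a kidney also shifted. In control kidneys mean FPKM ran from Timp3 at 64.7 ± 16.7 (SD, n = 3) over Timp2 at 12.5 ± 2.45 to Timp1, Mmp15, Mmp9, Mmp14 and Mmp2, whose neighbours overlapped between 7.44 and 3.61, and then to Mmp3 and Mmp12 below 1. In sham kidneys Timp3 at 114 ± 7.22 and Timp2 at 24.0 ± 6.58 also led without overlap. In adenine kidneys Mmp12 at 211 ± 40.9, Timp1 at 158 ± 18.3, Timp2 at 152 ± 16.0 and Mmp9 at 126 ± 74.2 came first, and the first 8 genes, down to Timp3 at 44.4 ± 11.0, each overlapped the next. In UUO kidneys Timp1 at 162 ± 34.2, Timp2 at 145 ± 33.5, Timp3 at 121 ± 16.2 and Mmp2 at 109.6 ± 32.5 came first, each overlapping the next, and Mmp9 at 2.07 ± 0.371 came last. Within the UUO group rat 3 was lowest for 7 of the 10 members and rat 1 highest for 6. The summed FPKM of 6 fibroblast and myofibroblast markers was also lowest in UUO rat 3, at 737 against 1324 and 1225 in rats 1 and 2. So were the macrophage sum (377 against 538 and 593) and the neutrophil, podocyte and endothelium sums. The T cell sum (237 against 140 and 112) and the loop, distal tubule and collecting duct sum (239 against 150 and 108) were highest in rat 3. Sums of the proximal tubule, urothelium and adipocyte markers lay between those of the other rats. The part of these sums in the order of the rats was not tested.

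**Figure D3:**
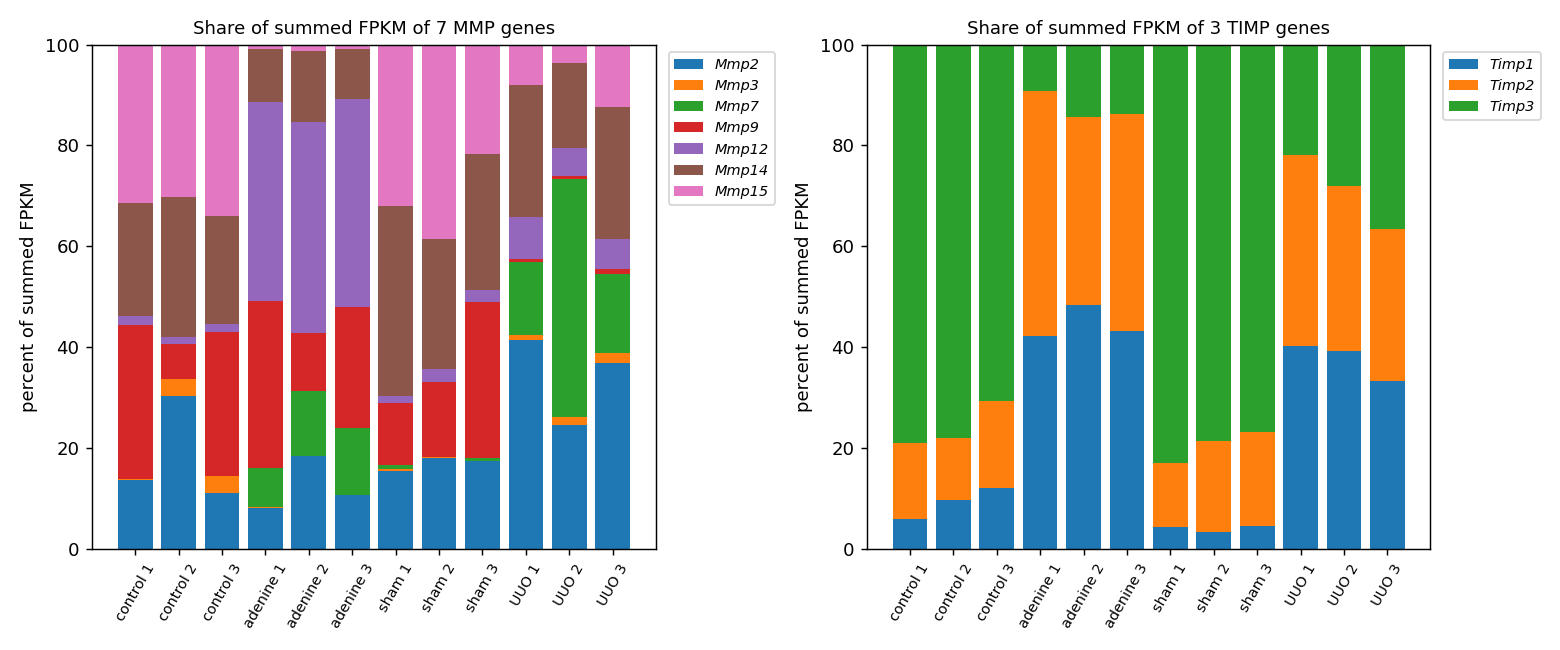
Share of each gene in the summed FPKM of the 7 metalloproteinases (left) and of the 3 TIMPs (right) in each kidney, in percent. Mmp12 takes 40.8% on average in adenine kidneys, Mmp2 34.3% in UUO kidneys, and Timp3 holds 75.9% and 79.4% of the TIMP sum in control and sham kidneys against 12.5% and 28.8% in adenine and UUO kidneys.

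Shares within a kidney do not depend on how the library was scaled. Mmp12 held 1.53% of the summed metalloproteinase FPKM in control and 40.8% ± 1.23 (SD, n = 3) in adenine kidneys, against 2.11% in sham and 6.61% in UUO. Mmp2 held 16.9% in sham and 34.3% ± 8.74 in UUO kidneys, while Mmp9 held 19.4% and 0.657%. Mmp7 held 25.8% ± 18.5 in UUO kidneys, most of it from rat 2. Among the TIMPs, Timp1 went from 9.22% ± 3.19 to 44.6% ± 3.29 in the adenine model and from 4.12% ± 0.676 to 37.6% ± 3.76 in the UUO model, and Timp3 from 75.9% ± 4.57 to 12.5% ± 2.83 and from 79.4% ± 3.16 to 28.8% ± 7.32. For the Timp1 share the exact permutation test gave p = 0.1 in each model, two-sided, the smallest value that 3 rats against 3 allow. Taken as a share of Timp1 and Timp2 alone, the Timp1 share was higher by 13.4 points in the adenine model, against 35.4 points with Timp3 in the sum, and by 32.4 points in the UUO model, against 33.5.

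The summed metalloproteinase FPKM went from 21.8 ± 6.14 to 519 ± 108 in the adenine model and from 28.9 ± 6.21 to 334 ± 124 in the UUO model, and the summed TIMP FPKM from 84.7 ± 17.4 to 354 ± 14.9 and from 144 ± 13.1 to 428 ± 51.1. The ratio of the sums was 0.266, 0.171 and 0.357 in control rats and 1.66, 1.06 and 1.70 in adenine rats, and 0.171, 0.222 and 0.203 in sham rats and 0.720, 1.04 and 0.553 in UUO rats. No treated kidney overlapped its controls. The log2 ratio was higher by 2.51 and by 1.92, with an exact permutation p of 0.1 in each model. With the median over members in place of the sum the UUO change turned to -0.022 (exact permutation p = 0.9). The change of the ratio of sums was smaller without Timp3, the abundant inhibitor that did not rise. The ratio then went from 1.09 to 1.68 in the adenine model (exact permutation p = 0.2). In the UUO model it went from 0.971 to 1.08 (exact permutation p = 0.9).

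**Figure D4:**
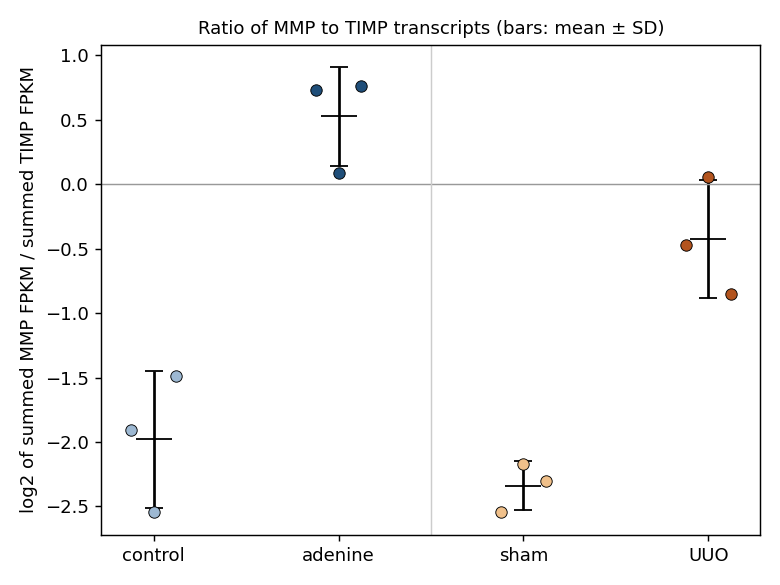
log2 ratio of the summed FPKM of 7 metalloproteinases to that of 3 TIMPs in each kidney (points), with mean and SD (bars, n = 3) by group. Adenine kidneys lie above 0, and 2 of the 3 UUO kidneys below it, all above the control and sham kidneys.

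Known pairs of enzyme and inhibitor were also set against each other, chosen after their values were seen and so given without a test. Mmp9 over Timp1, the inhibitor that binds pro-MMP-9, was 0.477, 0.990 and 1.37 in sham rats and 0.0102, 0.0145 and 0.0142 in UUO rats. In the adenine model the same ratio was 1.39, 0.124 and 0.841 in control and 1.31, 0.255 and 0.945 in adenine rats, which overlapped. Mmp2 over Timp2 was 0.208, 0.220 and 0.190 in sham and 0.786, 0.782 and 0.676 in UUO rats, and 0.238, 0.421 and 0.231 in control and 0.279, 0.525 and 0.422 in adenine rats. Mmp14 over Timp2 was between 0.294 and 0.511 in sham and between 0.481 and 0.539 in UUO rats, and 0.395, 0.384 and 0.447 in control and 0.363, 0.400 and 0.387 in adenine rats. The UUO and sham groups overlapped in the last ratio and in neither of the others, and the adenine and control groups overlapped in all 3.

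Other genes of the system were counted from 3 lists, beside 10.7% and 13.2% upregulated DEGs and median log2 FCs of 0.30 and 0.62 over all genes tested in the adenine and the UUO model. By an adjusted p under 0.05 alone, 39.6% of all tested genes were higher and 19.9% lower in the adenine model. In the UUO model these shares were 56.1% and 14.4%. Of 17 other metalloproteinase and TIMP genes, 7 reached the minimum FPKM in the adenine model, where 2 passed as DEGs, both upregulated, with 3 higher and 2 lower at an adjusted p under 0.05 and a median log2 FC of 0.46. For UUO 9 reached it and 5 passed, all upregulated, with 7 higher and 1 lower at that p and a median of 2.20. Of the upregulated DEGs 1 in the adenine model (Mmp20) and 3 in the UUO model (Mmp10, Mmp13 and Mmp20, of which Mmp10 is named after its values were seen) had 0 control or sham kidneys at the minimum FPKM, so they were tested only because they were high in treated kidneys. These counts and medians are therefore a description. Mmp19, which cuts basement membrane proteins, rose in both (log2 FC 4.46 and 3.52), as did Mmp20, the enamel protease (3.48 and 3.96), from control levels at or near 0. Mmp13, the main interstitial collagenase of rodents, was at 2.36, 18.1 and 4.82 FPKM in UUO kidneys and at most 0.0630 in sham, and did not exceed 0.171 in adenine kidneys, where it was not tested. Among genes named after their values were seen, Mmp24 was lower in both models (-0.95 and -1.02, adjusted p = 0.00247 and 0.000457 by limma, or -1.24 and -1.62 rescaled by the median of ratios). Mmp28, epilysin, was lower in the adenine model (-1.00, adjusted p = 0.0264) and higher in the UUO model (1.89, adjusted p = 0.000791), a difference of 2.89 (SE 0.41, adjusted p = 0.000517 from the limma fits). Rescaled by the median of ratios its changes were -1.27 and 1.31. The adenine decrease kept an adjusted p under 0.05 in 10 of 15 alternatives and reached 0.0796 without control rat 1, 0.0763 without control rat 2, 0.0665 without adenine rat 1 and 0.0842 without adenine rat 3.

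The run of 10 metalloproteinase genes on chromosome 8 reads, in RefSeq order, Mmp13, Mmp12, Mmp1b, Mmp3, Mmp1, Mmp10, Mmp8, Mmp27, Mmp20 and Mmp7, and includes 3 of the 10 members. Mmp12, Mmp20 and Mmp7 were upregulated DEGs in both models. Mmp13, Mmp3 and Mmp10 were upregulated DEGs in the UUO model. In the adenine model Mmp3 did not pass the test, and Mmp13 and Mmp10 did not reach the minimum FPKM and were not tested. Mmp10 was at 0.375, 0.120 and 0.423 FPKM in adenine kidneys and at most 0.0622 in control. Since most of these genes reached the minimum FPKM through treated kidneys alone, no count over the run is drawn. Mmp1 and Mmp1b stayed at the lowest listed value in all sham and UUO kidneys.

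Of 17 genes that activate, inhibit, induce or clear metalloproteinases, 16 were tested in each model, and plasminogen (Plg) reached the minimum in neither. In the adenine model 6 were upregulated and 1 downregulated DEGs, against 10.7% and 5.03% of all tested genes, with a median log2 FC of 1.56. At an adjusted p under 0.05, 12 were higher and 2 lower, against 39.6% and 19.9%. In the UUO model 8 were upregulated and 1 downregulated, against 13.2% and 4.21% of all tested genes, with a median of 2.13. At that p 12 were higher and 1 lower, against 56.1% and 14.4%. In each model 2 of the 16, among them A2m, had 0 control or sham kidneys at the minimum FPKM. They were tested only because they were high in treated kidneys, so these counts and medians are a description. Lcn2, lipocalin 2, which binds MMP-9 and protects it, rose in both models (log2 FC 7.08 and 5.99). A2m, alpha-2-macroglobulin, which traps proteases, rose to 22.7, 34.5 and 52.3 FPKM in adenine and 7.03, 9.09 and 5.63 in UUO kidneys from at most 0.0131 in control and sham kidneys. Plaur, the urokinase receptor, rose from 1.69, 1.31 and 1.83 FPKM in control to 49.1, 23.6 and 34.4 in adenine rats. It also rose from 0.932, 0.972 and 1.44 FPKM in sham to 15.0, 11.4 and 6.72 in UUO rats. The downregulated gene, the plasmin inhibitor Serpinf2, fell in both models (-4.19 and -3.42) and was named after its values were seen.

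Of 30 ADAM and ADAMTS genes, the related proteases that shed surface proteins and cut proteoglycans, 21 reached the minimum FPKM in the adenine model. Of these, 12 were upregulated DEGs, against 10.7% of all tested genes, and the median log2 FC was 2.06. At an adjusted p under 0.05 by limma, 19 were higher and 0 lower, against 39.6% and 19.9%. The counts were 20 and 0 at an unadjusted p under 0.05, for which no share of all tested genes is given. For UUO 22 reached the minimum FPKM, with 12 upregulated DEGs, against 13.2% of all tested genes, and a median of 2.37. By limma 20 were higher and 0 lower at either p, against 56.1% and 14.4% at the adjusted p. Among the DEGs 5 in each model had 0 control or sham kidneys at the minimum FPKM. They include Adam8 and Adam23 in both models and Adamts2 in the adenine model. Such genes were tested only because they were high in treated kidneys, so these counts and medians are a description. Adamts2, which trims procollagen, was at 0.206, 0.262 and 0.523 FPKM in sham and 18.2, 15.4 and 12.3 in UUO rats (log2 FC 5.22) and rose by 3.53 in the adenine model. Adam8, a protease of leukocytes, rose by 3.63 and 4.11, Adam23 by 3.49 in the adenine model and Adamts1 by 3.96 in the UUO model.

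**Figure D5:**
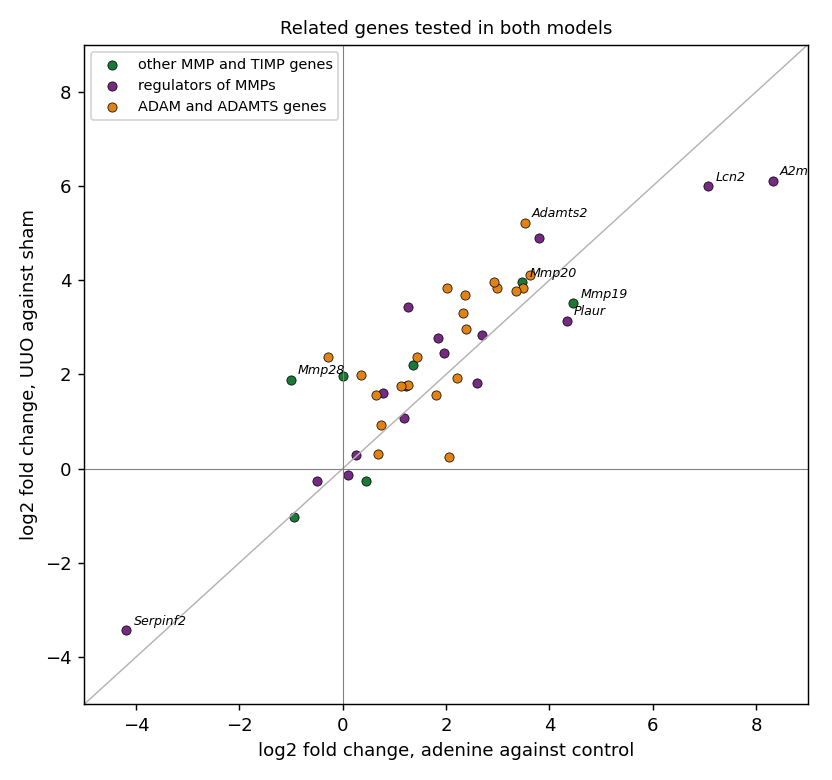
log2 fold change of related genes tested in both models, adenine against control on the x axis and UUO against sham on the y axis, with the line of equal change in grey. Most points lie right of 0 and above 0, Serpinf2 lies low on both axes at -4.19 and -3.42, and Mmp28 lies left of 0 and above it at -1.00 and 1.89.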

How the data were processed

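RNA from 12 rat kidneys was sequenced as poly(A) libraries with dUTP-marked strands. The authors deposited FPKM per gene, with the adenine model in 1 table (lowest value 0) and the UUO model in another (lowest value 0.0001). The submitters' processing notes name cutadapt 1.9, HISAT2 2.0.4 and StringTie 1.3.4d. The genome build is not given in the sources used here, so gene coordinates come only from RefSeq promoters of assembly GRCr8. Groups were taken from the labels, and columns were matched to samples by name.

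Each table was fitted alone in R 4.3.3 with limma 3.58.1 (linear fit, moderated with a mean-variance trend) on log2(FPKM + 0.1). Entries that reached 0.5 FPKM in 3 or more of the 6 samples were tested, and Benjamini-Hochberg adjustment ran over all of them. To compare the models, the log2 FC values were subtracted and divided by the root of their summed squared SE. The result was referred to a t distribution with the moderated degrees of freedom of both limma fits added. Adjustment ran over all symbols that had 1 entry tested in both tables. The test compares changes and no level across tables. Ratios and shares were tested by an exact permutation test, two-sided. Python 3.11.15, numpy 2.4.6, pandas 2.3.3 and scipy 1.17.1 were used, and the fits were tested on simulated data. The p-values measure the spread between rats.

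The text names all 10 members and, from each related list and model, the 3 DEGs with the largest change among those whose groups do not overlap, of which 1 is not reported here. Other genes are marked as named after their values were seen. Members and lists were chosen with earlier results of these data known. The replicate numbers of the labels were checked as pairs: the deviations of same-numbered samples correlated at -0.123 to -0.049 in the adenine model and 0.050 to 0.105 in the UUO model. Samples with different numbers correlated at -0.044 to 0.113 and at -0.078 to 0.016. With 3 samples in a group this cannot decide whether numbers mark pairs, and the main fits used no pairing. Results were recomputed with 1 or 0.01 added, without a filter or with 1 FPKM as the minimum, with 3 other scalings, without the trend, with a replicate block, without the fold threshold, with other sums of the members and without each sample in turn. Fits without 1 sample kept the genes tested in the full fit.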

Additional observations from a re-analysis of the deposited data

Results flagged for a closer look

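The 5 results below were set apart because the tested difference between the models passed the thresholds, looking only at the members and the named genes. Mmp28 was among these after its values were seen. In the related lists Serpine2 (2.16, adjusted p = 0.00449 from the limma fits) and Adamts8 (2.67, adjusted p = 0.00772) also passed. Both are named here after their values were seen. Mmp12 in the adenine model, Mmp3 in the UUO model and A2m in both were tested only because they were high in treated kidneys. Their differences are a description. The log2 FC in the UUO model exceeded that in the adenine model by 4.40 for Mmp3 and by 2.89 for Mmp28. It was lower in the UUO model, with differences of -6.01 for Mmp9, -4.02 for Mmp12 and -2.20 for A2m. Control and sham values of A2m lie close to the lower end of the tables, so its log2 FC depends on the pseudocount, from 5.14 to 10.9 in the adenine model and from 3.02 to 9.06 in the UUO model over all alternatives. The Mmp3 difference, from sham values under 0.1 FPKM, ran from 2.26 with a pseudocount of 1 to 5.42 with 0.01. Groups of 3 rats are too small for the test of single outlying kidneys.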

How the results depend on the processing

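The adenine model gave the same 7 DEGs among the members under every alternative. The UUO model gave its 7 in all but quantile normalization, which added Mmp9 (8 DEGs), and the removal of the fold threshold, which gave 9. Of the differences between the models 3 were called, with 3 to 4 when 1 rat was left out, as Mmp15 crossed a difference of 2 without control rat 2, sham rat 2 or UUO rat 2. The count was 2 with a minimum of 1 FPKM, where Mmp3 was not tested in the adenine model, and 4 with a pseudocount of 0.01, which added Mmp7 (-3.16). With a replicate block both models still gave 7 members, and 2352 and 2609 DEGs among all genes.

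Counts in the related lists moved with the fold threshold and the pseudocount. For other metalloproteinases the adenine count of 2 became 1 with a pseudocount of 1 or a minimum of 1 FPKM and 5 without the fold threshold, and the UUO count of 5 became 2, 3 and 8. The adenine count of regulators went from 7 to 14 without the fold threshold. For ADAM and ADAMTS genes the adenine count of 12 became 4 with a pseudocount of 1, 6 with quantile normalization and 19 without the fold threshold, and the UUO count of 12 became 20.

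Direction turned in 4 results. Mmp3 in the adenine model ran from -0.15 to 1.11 when 1 rat was left out, negative without control rat 1. Timp3 in the UUO model ran from -0.018 to 0.18, negative without UUO rat 3, and was -0.53 after median-of-ratios scaling. The Mmp7 difference between the models was 0.18 with a pseudocount of 1. The log2 ratio of metalloproteinases to TIMPs in the UUO model was -0.022 with medians in place of sums, where the p of 0.1 for the sums is the smallest the design allows. The causes were not tested. Depth is unknown, so values under 1 FPKM, among them all Mmp3 and Mmp12 control values, carry an error that these tables do not show.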
